A study of Mus musculus with 2 samples.

Results

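The IL-6 family was followed through 10 genes: the ligands Il6, Lif and Il11, the receptor chains Il6ra, Il6st, Lifr, Osmr and Il11ra1, the transcription factor Stat3 and its feedback inhibitor Socs3. The list is that of a known pathway and uses no measured value as a threshold, although it was drawn up with earlier results of these data known. All 10 were among the 21905 genes measured. The question was which cells of mouse bone hold RNA for the cytokines, which hold RNA for the receptors, and how both stood after doxorubicin (Doxo), a chemotherapy drug that damages DNA. Female mice aged 12 weeks received vehicle (Veh) or Doxo at 10 mg/kg, and femurs and tibias were taken after 96 h. Both conditions used the same collagenase digest and the same sort against CD45, CD71 and Ter119, which mark blood cells, and, per the labels but not the study's methods, against CD31, which marks endothelial cells. The levels describe the bone cells that survive this preparation. The strain and the number of mice behind each library were not given in the sources used here for these cells.

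Cytokines of the IL-6 family act through Il6st, the signal chain that all of them share. IL-6 and IL-11 first bind their own receptors, encoded by Il6ra and Il11ra1, whereas LIF signals through a pair of LIFR and the shared chain, and oncostatin M through OSMR or LIFR with that chain. The receptors activate JAK kinases and STAT3, and STAT3 in turn induces SOCS3, which blocks the shared chain and closes the loop. In bone the family is known for acting on osteoblasts, on the stroma that supports blood formation, on cartilage and, through RANKL, on osteoclast formation.

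The loci lie on mouse build GRCm38. The ligand genes are Il6 at chr5:30013114-30019981, Lif at chr11:4257557-4272514 and Il11 at chr7:4772373-4782859. The receptor genes are Il6ra at chr3:89864059-89913196, Il6st at chr13:112464070-112510086, Lifr at chr15:7090614-7197489, Osmr at chr15:6813577-6874969 and Il11ra1 at chr4:41699989-41769474. Stat3 lies at chr11:100885098-100939540 and Socs3 at chr11:117966079-117970047. Il11ra1 has near-identical copies on the same chromosome, Il11ra2 at chr4:42656355-42661893 and Gm13305 at chr4:42158842-42168603, so its counts are uncertain where reads could have been split among them. Il11ra2 was on the wider pathway list read below, and no value for it is reported here.

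The promoters of the inducible members are shown for Il6, Lif and Socs3, which stood together at a higher level in 1 sub-cluster of CAR-like cells described below. The Il6 sequence is the 250 bases before the RefSeq start on the plus strand, chr5:30012864-30013113, upstream of the first exon and in no annotated exon. Capitals mark an AP-1 motif (TGANTCA) at -249 to -243 and a kappa-B motif (GGG and TTCC with 3 bases of any kind between) at -44 to -35, counted from the start.
Il6: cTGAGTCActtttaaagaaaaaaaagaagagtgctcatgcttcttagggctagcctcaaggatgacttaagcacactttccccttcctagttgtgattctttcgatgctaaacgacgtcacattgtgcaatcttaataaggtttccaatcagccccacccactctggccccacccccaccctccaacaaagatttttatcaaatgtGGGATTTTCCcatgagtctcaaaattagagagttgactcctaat
For Lif and Socs3 only 30 bases round the match are shown, chr11:4257329-4257358 on the plus strand and chr11:117969501-117969530 on the minus strand, both outside GENCODE exons. The capitals mark an AP-1 motif at -228 to -222 of Lif and a STAT motif (TTCNNNGAA) at -154 to -146 of Socs3.
Lif: ccagtcagctgTGACTCAggccatagtggc
Socs3: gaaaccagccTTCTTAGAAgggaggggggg
The same 3 motifs were searched on both strands in the 13 RefSeq windows of the 10 genes. The only other match was an AP-1 motif at -98 to -92 of a second Il11 start. Stat3, which also stood higher in the sub-cluster named above, had no match in its window. Among 32851 promoter windows of this length, 4.65% held the kappa-B motif, 6.75% the AP-1 motif and 7.02% the STAT motif. A match is a run of letters and no measurement of binding.

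There was 1 library per condition, so no test of Doxo against Veh was possible. All intervals are exact 95% intervals for counting error alone and say nothing of how mice differ. Those of levels and ratios treat UMIs as independent draws, so they are too narrow where many UMIs lie in few cells. Each library held 2488 cells, with 24859695 unique molecular identifiers (UMIs, 1 per captured RNA molecule) in Veh and 20792012 in Doxo, and median UMIs per cell were 8693 and 7347.5. Only 4 cell barcodes occurred in both libraries. Cells were clustered without the 10 genes or their pathway and named by marker genes. CAR-like cells (CXCL12-abundant reticular cells, the stromal cells that feed blood stem cells, 8 of 8 markers) numbered 363 in Veh and 419 in Doxo. Bone and cartilage fibroblast-like cells (6 of 8 markers) numbered 1086 and 1347, arteriolar and endosteal fibroblast-like cells (7 of 8) 433 and 261, osteoblast-like cells (6 of 8) 212 and 134, and chondrocyte-like cells (8 of 8) 247 and 203. Endothelial-like cells (8 of 8) numbered 103 and 69 although the labels name CD31 in the depletion. One cluster of 44 and 55 cells, led by Tmem196, Pcbd1, Clic5 and Rab37, matched fewer than 3 markers of any type and stays unnamed. RNA of erythroid markers stood higher in Veh: 4 of them summed to between 82.4 and 518 CPM in the 7 classes of Veh and to between 0 and 11.4 CPM in Doxo. Whether this was free RNA was not tested. Immune cell markers were higher in Veh in CAR-like and bone and cartilage fibroblast-like cells, as given below, but not in every class. Their sums were 24.1 CPM in Veh and 23.9 in Doxo chondrocyte-like cells, and 82.8 and 143 in endothelial-like cells. Depth differed between classes. Chondrocyte-like cells had a median of 19476 UMIs in Veh and 14786 in Doxo and osteoblast-like cells of 3101.5 and 3020, so levels are given as CPM, the UMIs of a gene scaled to a sum of 1000000 UMIs in the class, and shares of cells also after thinning each cell to 2000 UMIs.

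The class with the largest share of Il6 UMIs was CAR-like cells in Veh and arteriolar and endosteal fibroblast-like cells in Doxo. In Veh, CAR-like cells held 214 of the 545 Il6 UMIs (39.3%), although they held 9.97% of all UMIs, while arteriolar and endosteal fibroblast-like cells held 26.1% of Il6 UMIs and chondrocyte-like cells 22.8%. Their level was 86.3 CPM (95% interval 75.1 to 98.7), which was 2.59 times that of the next class, arteriolar and endosteal fibroblast-like cells at 33.3 CPM (28.1 to 39.3). The unnamed cluster at 27.5 CPM, chondrocyte-like cells at 25.5 and endothelial-like cells at 24.3 followed, and these intervals overlapped with each other and with that of the arteriolar and endosteal class. Bone and cartilage fibroblast-like cells at 2.70 CPM and osteoblast-like cells at 1.2 CPM were lowest.

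In Doxo the order changed. Arteriolar and endosteal fibroblast-like cells held 165 of 235 Il6 UMIs (70.2%) with 10.3% of all UMIs, a level of 77.3 CPM (66 to 90.1), and CAR-like cells held 32 at 9.83 CPM (6.72 to 13.9). The other classes lay at 6.4 CPM or lower, with intervals that overlapped.

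Few cells carried the cytokine in either library. An Il6 UMI was found in 29 of 363 Veh CAR-like cells (7.99%), 14 of 419 in Doxo (3.34%), 38 of 433 Veh arteriolar and endosteal fibroblast-like cells (8.78%) and 26 of 261 in Doxo (9.96%). After thinning these shares were 5.78% and 1.47% in CAR-like cells and 3.76% and 7.28% in the fibroblast-like cells. No class is known to lack Il6, so the share that free RNA alone would give was not measured. The lowest shares after thinning were 0.382% and 0.472% in bone and cartilage fibroblast-like cells of Doxo and Veh, and 0 of 108 and 1 of 164 osteoblast-like cells of Doxo and Veh. The 5 cells with most Il6 held 117 of the 214 UMIs in Veh CAR-like cells and 105 of the 165 in Doxo arteriolar and endosteal fibroblast-like cells. In Veh chondrocyte-like cells they held 103 of 124 UMIs, and 1 cell alone had 48.

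Lif, which keeps stem cells undifferentiated and acts on osteoblasts and nerves, was shared in Veh among chondrocyte-like cells (74 of 209 UMIs), CAR-like cells (66) and bone and cartilage fibroblast-like cells (61). By level the order was CAR-like cells at 26.6 CPM (20.6 to 33.9), chondrocyte-like cells at 15.2 (12.0 to 19.1) and bone and cartilage fibroblast-like cells at 5.49 (4.2 to 7.05), with intervals that did not overlap. The 5 cells with most Lif held 54 of the 66 UMIs in CAR-like cells, 60 of 74 in chondrocyte-like cells and 34 of 61 in bone and cartilage fibroblast-like cells, so the order rests on few cells. In Doxo, 60 of the 75 Lif UMIs lay in bone and cartilage fibroblast-like cells (5.59 CPM), while CAR-like cells had 3 and chondrocyte-like cells had 1. Osteoblast-like cells, the shallowest class, had 0 of 212 cells with a Lif UMI in Veh, and 3 counts of that total would be 1.42%. This limits cells with a UMI at this depth, not cells that express the gene. They had 6 UMIs in 4 cells in Doxo. Endothelial-like cells had no Lif UMI among 103 Veh and 69 Doxo cells, for which 3 counts would be 2.91% and 4.35%.

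Il11, a cytokine of cartilage and fibroblasts that also promotes osteoclast formation, was highest in chondrocyte-like cells in both libraries. In Veh they held 876 of 1297 Il11 UMIs (67.5%) at 180 CPM (168 to 193), 6.37 times the level of the next class. In Doxo they held 140 of 350 UMIs (40%) at 45.3 CPM, against 191 (54.6%) in the more numerous bone and cartilage fibroblast-like cells at 17.8 CPM. In Veh, bone and cartilage fibroblast-like cells came second with 314 UMIs at 28.3 CPM (25.2 to 31.6). Endothelial-like cells at 17.1 CPM, CAR-like cells at 14.5 and arteriolar and endosteal fibroblast-like cells at 13.1 had overlapping intervals in Veh. The unnamed cluster had no Il11 UMI among 44 Veh and 55 Doxo cells, for which 3 counts would be 6.82% and 5.45%. An Il11 UMI was found in 63 of 247 Veh chondrocyte-like cells (25.5%, and 9.96% after thinning) and in 25 of 203 Doxo cells (12.3% and 5%). The 5 cells with most Il11 held 455 of the 876 Veh UMIs and 95 of the 140 in Doxo.

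**Figure D1:**
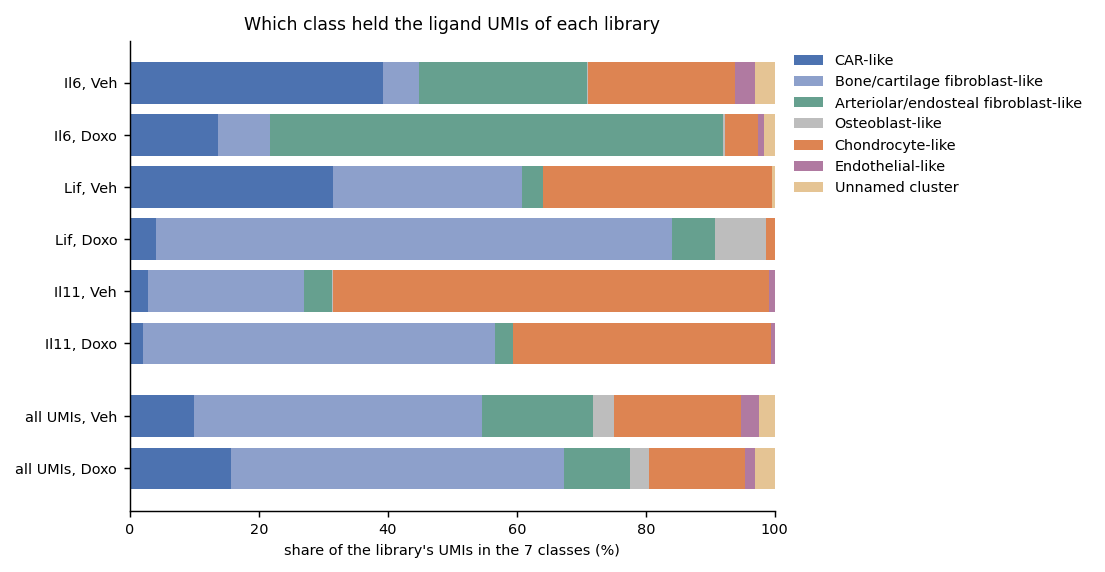
Share of each ligand's UMIs held by the 7 cell classes in Veh and Doxo (x axis, percent of the library's UMIs of that gene), with the share of all UMIs in the 2 lowest bars. CAR-like cells held 39.3% of Il6 UMIs in Veh and 13.6% in Doxo, and chondrocyte-like cells held 67.5% and 40% of Il11 UMIs.

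Of the 5 receptor genes, 4 peaked in different classes in Veh with intervals apart from the next class, and Il6ra had no single leading class. Il6st, the shared chain, was highest in endothelial-like cells at 709 CPM (648 to 774) in Veh and 540 (466 to 623) in Doxo. Arteriolar and endosteal fibroblast-like cells came next at 227 and 221 CPM. CAR-like cells (156 and 144 CPM), bone and cartilage fibroblast-like cells (143 and 145) and the unnamed cluster (141 and 158) overlapped. Chondrocyte-like cells (80.2 and 64.7) and osteoblast-like cells (59.0 and 55.0) were lowest, again with overlapping intervals. UMIs of this chain were thus found in every class.

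Il6ra, the binding chain for IL-6, had 6 UMIs in Veh CAR-like cells (2.42 CPM, 0.888 to 5.27), 2 in endothelial-like cells (2.85 CPM) and none in 212 osteoblast-like cells, for which 3 counts would be 1.42%. Bone and cartilage fibroblast-like cells had 24.4 CPM (21.6 to 27.5), arteriolar and endosteal fibroblast-like cells 23.5 (19.1 to 28.5) and chondrocyte-like cells 19.7 (16 to 24.1), which overlapped. The unnamed cluster had 40.4 CPM (26.1 to 59.6) in Veh and 43.2 (28.5 to 62.9) in Doxo, and its Veh interval overlapped with those of both fibroblast-like classes. Cells with a UMI made up 1.38% of Veh CAR-like cells at a median depth of 6231 UMIs, against 17.2% of bone and cartilage fibroblast-like cells at 9733.5. After thinning, these shares were 0.867% and 3.87%.

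Lifr, the LIF receptor chain, ran the other way. It was highest in osteoblast-like cells at 562 CPM (513 to 616) in Veh and 445 (393 to 502) in Doxo and in CAR-like cells at 441 (415 to 468) and 358 (338 to 379). Endothelial-like cells followed at 178 and 223 CPM, chondrocyte-like cells had 111 and 97.4, and the 2 fibroblast-like classes lay between 33.9 and 54.2 CPM. After thinning, 64.0% of Veh osteoblast-like cells and 49.1% of Veh CAR-like cells had a Lifr UMI, against 5.76% of bone and cartilage fibroblast-like cells.

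Osmr, the oncostatin M receptor chain, was highest in chondrocyte-like cells at 181.7 CPM (170 to 194) in Veh. In Doxo it had 133 CPM there (120 to 146), which overlapped with endothelial-like cells at 143 (106 to 188). Osteoblast-like cells were lowest at 19.3 and 33.3 CPM, and all other values lay between 67.0 and 118 CPM. Il11ra1, the binding chain for IL-11, was highest in arteriolar and endosteal fibroblast-like cells at 269 CPM (254 to 285) in Veh and 241 (221 to 263) in Doxo. Bone and cartilage fibroblast-like cells had 103 CPM in both libraries and chondrocyte-like cells 73.0 and 90.9, while osteoblast-like cells had 4 UMIs (4.82 CPM) in Veh and 14 (23.3 CPM) in Doxo.

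**Figure D2:**
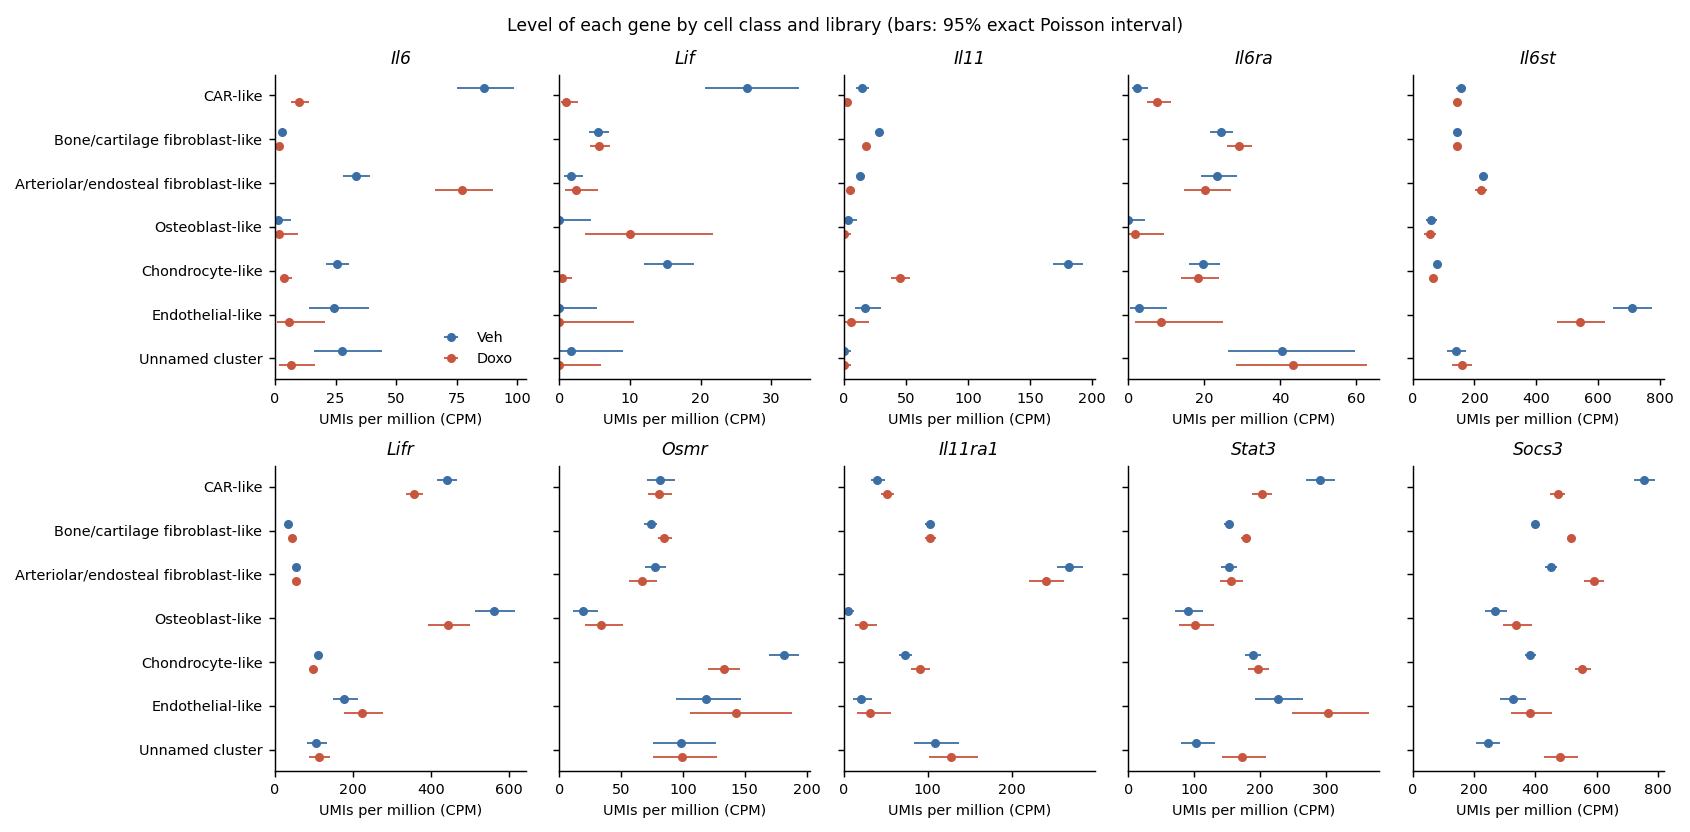
Level of each of the 10 genes (x axis, CPM, linear and from 0) in the 7 cell classes, with Veh and Doxo as separate points and exact 95% Poisson intervals. In Veh 4 receptor chains peak in different classes: Il6st in endothelial-like cells (709 CPM), Lifr in osteoblast-like cells (562), Osmr in chondrocyte-like cells (181.7) and Il11ra1 in arteriolar and endosteal fibroblast-like cells (269).

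Pairs of chains were then counted in single cells. With every cell at 2000 UMIs, Lifr and Il6st occurred together in 46 of 346 Veh CAR-like cells (13.3%, 9.90 to 17.3) and 54 of 408 in Doxo (13.2%, 10.1 to 16.9), in 15.6% and 19.7% of endothelial-like cells, and in at most 3.83% of cells of each fibroblast-like class. Osteoblast-like cells had the pair in 13 of 164 cells in Veh (7.93%, 4.29 to 13.2) and 2 of 108 in Doxo (1.85%, 0.225 to 6.53). Il11ra1 and Il6st occurred together in 12.4% of Veh and 14.9% of Doxo arteriolar and endosteal fibroblast-like cells, 6.04% and 4.89% of bone and cartilage fibroblast-like cells, and in none of 164 and 108 osteoblast-like cells. Osmr with Il6st was most frequent in endothelial-like cells, at 12.5% and 14.8%. Il6ra with Il6st reached no more than 2.27% of cells in any class at this depth, and was found in 2 of 346 Veh and none of 408 Doxo CAR-like cells.

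Without thinning, the Il6ra pair was present in 146 of 1086 Veh bone and cartilage fibroblast-like cells (13.4%), 52 of 247 chondrocyte-like cells (21.1%) and 3 of 363 CAR-like cells (0.826%). The product of the shares of the 2 single chains was 12.0%, 16.9% and 0.793%. In CAR-like cells of Veh, none of the 29 cells with an Il6 UMI had an Il6ra UMI, and 29 of 29 had a Socs3 UMI, against 65.6% of the CAR-like cells without Il6. The cells with Il6 were deeper, with a median of 9504 against 5995 UMIs, and the part of depth in this difference was not tested.

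**Figure D3:**
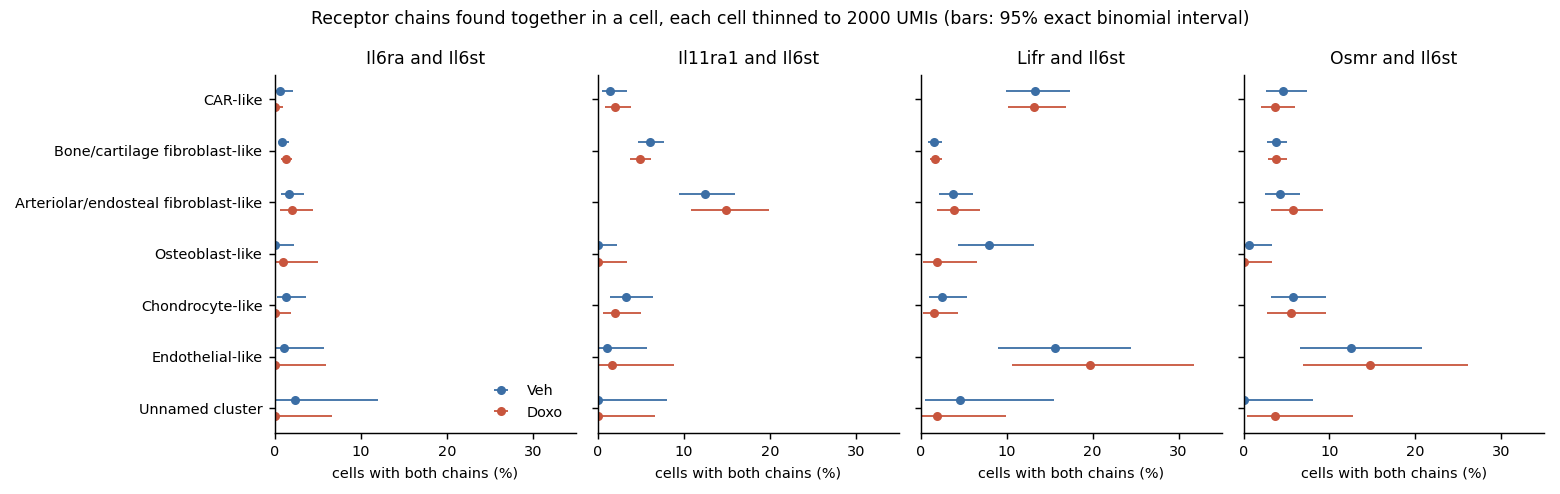
Share of cells with a UMI of both receptor chains after each cell was thinned to 2000 UMIs (x axis, percent, from 0), by cell class, with Veh and Doxo as separate points and exact 95% binomial intervals. The Lifr pair is at 13.3% and 13.2% in CAR-like cells and the Il11ra1 pair at 12.4% and 14.9% in arteriolar and endosteal fibroblast-like cells.

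Stat3 and Socs3 were found in every class. In Veh, Stat3 was highest in CAR-like cells at 291 CPM (270 to 313) and lowest in osteoblast-like cells at 90.3 (71.1 to 113) and the unnamed cluster at 103 (79.6 to 132). In Doxo, endothelial-like cells had 303 CPM (248 to 366), CAR-like cells 203 (188 to 219) and chondrocyte-like cells 197 (182 to 214). Socs3 was highest in Veh CAR-like cells at 753 CPM (719 to 788). The other classes of Veh lay between 244 and 449 CPM, and in Doxo all 7 lay between 338 and 589 CPM.

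Doxo was then set against Veh within each class. A gene was called where the levels differed by a fold of at least 1.5 and the counting interval of the ratio excluded 0 on the log2 scale, among genes with at least 20 UMIs in both libraries together. With 1 library a side this describes 2 libraries. The 5 receptor genes gave 32 comparisons over the 7 classes, of which 1 was called, Il6ra in CAR-like cells. Of all genes compared in a class, between 2.64% and 11.7% were called higher and between 4.19% and 8.54% lower. The calls otherwise fell on the ligands, Stat3 and Socs3.

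In CAR-like cells all 10 genes could be compared, and 4 were called lower and 1 higher. Of all 11364 genes compared there, 7.36% were lower and 8.25% higher. Il6 had 214 UMIs in Veh, 32 in Doxo and a log2 ratio of -3.12 (-3.72 to -2.59). Lif went from 66 to 3 UMIs (-4.64, -7.17 to -3.24) and Il11 from 36 to 7 (-2.68, -4.17 to -1.57). Socs3 had 753 CPM in Veh and 472 in Doxo (-0.67, -0.77 to -0.58). Stat3, at 291 and 203 CPM, had a ratio of -0.52 (-0.68 to -0.37), short of the fold needed. After thinning, Il6 (-2.47) and Stat3 (-0.62) were called, Socs3 (-0.56) was not, and Lif and Il11 had 9 and 8 UMIs left, too few to compare. With a stricter cell filter Socs3 was at -0.57 and not called. The median log2 ratio over the 10 genes was -0.41, against 0.05 over all genes compared.

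Il6ra was higher in Doxo CAR-like cells, with 6 and 25 UMIs, 2.42 and 7.68 CPM and a log2 ratio of 1.58 (0.35 to 3.24). Of the 25 UMIs, 11 lay in 16 Doxo cells of a sub-cluster with a median of 19174.5 UMIs that was led by Npy, Msmp and Clec3a and by the cartilage and fibroblast genes Acan, Sox6 and Cilp2. The largest sub-cluster had 4 and 14 UMIs, 2.56 CPM (0.698 to 6.56) in Veh and 4.78 (2.62 to 8.03) in Doxo. The call was lost after thinning, without the deepest 5% of cells and in cells chosen by CAR markers, where the ratio was 0.18. Lifr stood at -0.30, Il6st at -0.11, Osmr at -0.01 and Il11ra1 at 0.38, none of them called.

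Most Il6 and Lif UMIs of Veh CAR-like cells lay in 1 sub-cluster. CAR-like cells divided into 3 sub-clusters without the use of the 10 genes. The second held 84 of 363 CAR-like cells in Veh but 3 of 419 in Doxo, and its leading genes by fold included Il6, Ccl7, Gdf15, Ccl2, Fosl1, Cxcl1 and Myc. It held 206 of the 214 Veh Il6 UMIs, in 24 cells, at 276 CPM (240 to 317), whereas the first sub-cluster with 268 Veh cells had 3 UMIs (1.92 CPM). Lif was similar, with 60 of the 66 Veh UMIs there at 80.4 CPM and 3 UMIs in the first sub-cluster. Its Socs3 level was 1529 CPM (1442 to 1621) against 419 (387 to 452), and its Stat3 level was 433 (387 to 483) against 232 (209 to 258).

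Receptor levels in that sub-cluster were closer to those of its neighbors. Il6st had 155 CPM against 153 in the first sub-cluster, Osmr 109 against 72.4, and Lifr 353 against 505. Il6ra had 2 UMIs. The 3 Doxo cells of this kind had 13 Il6 UMIs, no Lif UMI and 39 Socs3 UMIs, too few to compare.

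A list of 21 early-response genes (Fos, Egr1, Atf3, Nfkbia, Cxcl1 and others), which are switched on within minutes to hours of stress and also by tissue digestion, was highest in the second sub-cluster in Veh. Cxcl1 and Ccl7 of this list were among the leading genes of that sub-cluster and were not kept out of the clustering. Over all CAR-like cells the list summed to 17449.5 CPM in Veh against 13406.2 in Doxo, and within Veh it was 30673.5 in the second sub-cluster and 12236 in the first. Within Doxo it was 19899.7 in the 3 cells of the second and 12628 in the first. The third sub-cluster, with 11 Veh and 16 Doxo cells, had 7412 CPM in Veh and 20372 in Doxo. Of the 21 genes, 11 were lower and none higher in Doxo CAR-like cells, where 7.36% of all genes compared were lower and 8.25% higher. Atf3, Nfkbia and Cxcl1 were among the 11, while Fos and Egr1 were not called. The 8 immune cell markers also stood higher in Veh CAR-like cells, at 521 against 73.4 CPM, all 8 being detected, while Ptprc (CD45) had a UMI in 0.764% of all Veh and 0.563% of all Doxo cells. Osteoblast markers, 8 of 8 detected, summed to 7505 and 2148 CPM in the same cells. The part of any of these in the results was not tested.

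Without the second sub-cluster, Il6 in CAR-like cells had 8 UMIs in Veh and 19 in Doxo (log2 ratio 0.30, -0.91 to 1.75), Socs3 had a ratio of 0.15 (0.02 to 0.28), Lif of -1.79 (-4.52 to 0.33) and Stat3 of -0.21 (-0.39 to -0.02). Il11 kept its call there at -3.13 (-4.77 to -1.93), although 16 of its 30 remaining Veh UMIs came from 1 cell. In cells chosen by CAR markers in place of the cluster, which include cells of other classes, Il6 had a ratio of -0.52 and Lif of -1.92.

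**Figure D4:**
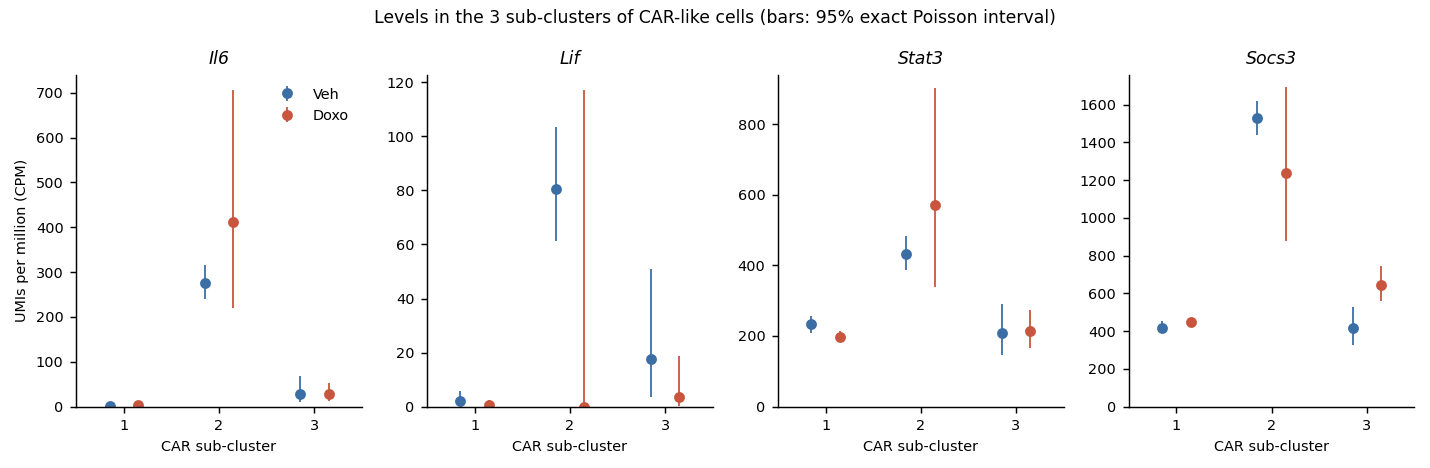
Level of Il6, Lif, Stat3 and Socs3 (y axis, CPM, linear and from 0) in the 3 sub-clusters of CAR-like cells, with Veh and Doxo as separate points and exact 95% Poisson intervals. Sub-cluster 2 stands above the others for all 4 genes in Veh, with 276 CPM of Il6 and 1529 of Socs3, and its Doxo points rest on 3 cells.

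Chondrocyte-like cells showed the 3 ligands lower and no other gene called, of 10 compared. In the background of 10813 genes, 8.54% were lower and 9.11% higher. Il11 had 876 UMIs in Veh and 140 in Doxo, or 180 and 45.3 CPM (log2 ratio -1.99, -2.26 to -1.73). Il6 went from 124 to 12 UMIs (-2.66, -3.71 to -1.86) and Lif from 74 to 1 (-4.98, -10.9 to -3.03). Outside the 5 cells with most Il11 in each library, 421 and 45 UMIs remained. Socs3 had 383 and 553 CPM (0.53, 0.44 to 0.63), which is under the fold needed but was 0.70 and called after thinning, and Osmr 181.7 and 133 CPM (-0.45). Thinning left 19 Il6 and 11 Lif UMIs, too few to compare, with Il11 still called at -2.16. The median over the 10 genes was -0.25, against 0.06 for all genes. In contrast to CAR-like cells, the early-response list was higher in Doxo chondrocyte-like cells for 13 of 19 genes compared and lower for 2, with summed levels of 15508 CPM in Veh and 32354 in Doxo. Its part in these ratios was not tested.

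In arteriolar and endosteal fibroblast-like cells Il6 was higher and Il11 lower in Doxo, of 9 genes compared, where 3.89% of 11245 genes were higher and 5.7% lower. Il6 had 33.3 CPM in Veh, 77.3 in Doxo and a log2 ratio of 1.21 (0.88 to 1.55), which was 0.86 after thinning and 0.82 when fewer components were used to cluster. Outside the 5 cells with most Il6, 69 and 60 UMIs remained in totals of 4262365 and 2133191 UMIs. The share of cells with an Il6 UMI was 8.78% (6.29 to 11.8) in Veh and 9.96% (6.61 to 14.3) in Doxo. After thinning it was 3.76% (2.16 to 6.03) and 7.28% (4.44 to 11.1), and both pairs of intervals overlapped. Il11 went from 56 to 10 UMIs (-1.43, -2.62 to -0.50), and 28 of the Veh UMIs were in 1 cell. This call was lost after thinning, without the deepest cells and with fewer components. Socs3 had 449 and 589 CPM (0.39, 0.29 to 0.49) and was not called, while Il6st, Lifr, Osmr, Il6ra and Il11ra1 all lay between -0.21 and -0.03. The early-response list was higher in 7 of 21 genes and lower in 1, and its part was not tested. The median over the 9 genes was -0.04, against -0.02 for all genes.

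In bone and cartilage fibroblast-like cells 1 of 10 genes was called, against 6.57% of 13090 genes lower and 2.64% higher. Il11 had 28.3 CPM in Veh and 17.8 in Doxo (-0.67, -0.94 to -0.40), and 102 of its 314 Veh UMIs came from 1 cell. Without the deepest 5% of cells its ratio was -0.08. Lif had 61 and 60 UMIs (0.02, -0.51 to 0.56). Socs3 (399 and 516 CPM, 0.37), Lifr (33.9 and 43.8 CPM, 0.37), Stat3 (0.23) and Osmr (0.21) had intervals above 0 but folds under 1.5. The median over the 10 genes was 0.12, against -0.09 for all genes. The early-response list was higher in 6 of 21 genes and lower in 2, with summed levels of 13374 CPM in Veh and 19540 in Doxo, and its part was not tested. The 8 immune markers summed to 473 CPM in Veh and 57.9 in Doxo here.

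Osteoblast-like cells had 5 genes with enough UMIs and endothelial-like cells 6, and none was called. Among all genes, 11.7% were higher and 6.78% lower in Doxo osteoblast-like cells, and 5.73% and 4.19% in endothelial-like cells. Lifr in osteoblast-like cells had 562 and 445 CPM (-0.34, -0.56 to -0.12) and Il6st in endothelial-like cells 709 and 540 CPM (-0.39, -0.64 to -0.15). Stat3 in endothelial-like cells had 227 and 303 CPM (0.42, 0.05 to 0.78). The median over the genes compared was 0.17 in osteoblast-like and 0.30 in endothelial-like cells, against 0.12 and 0.04 for all genes. In the unnamed cluster, Stat3 (103 and 173 CPM, 0.74, 0.28 to 1.21) and Socs3 (244 and 480 CPM, 0.97, 0.69 to 1.27) were higher and Il6 lower (17 and 4 UMIs, -1.97, -4.13 to -0.48), of 8 genes compared. There, 5.06% of 6564 genes were higher and 4.2% lower. The 17 Veh Il6 UMIs came from 3 cells. The median over the 8 genes was 0.13, against 0.03 for all genes.

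**Figure D5:**
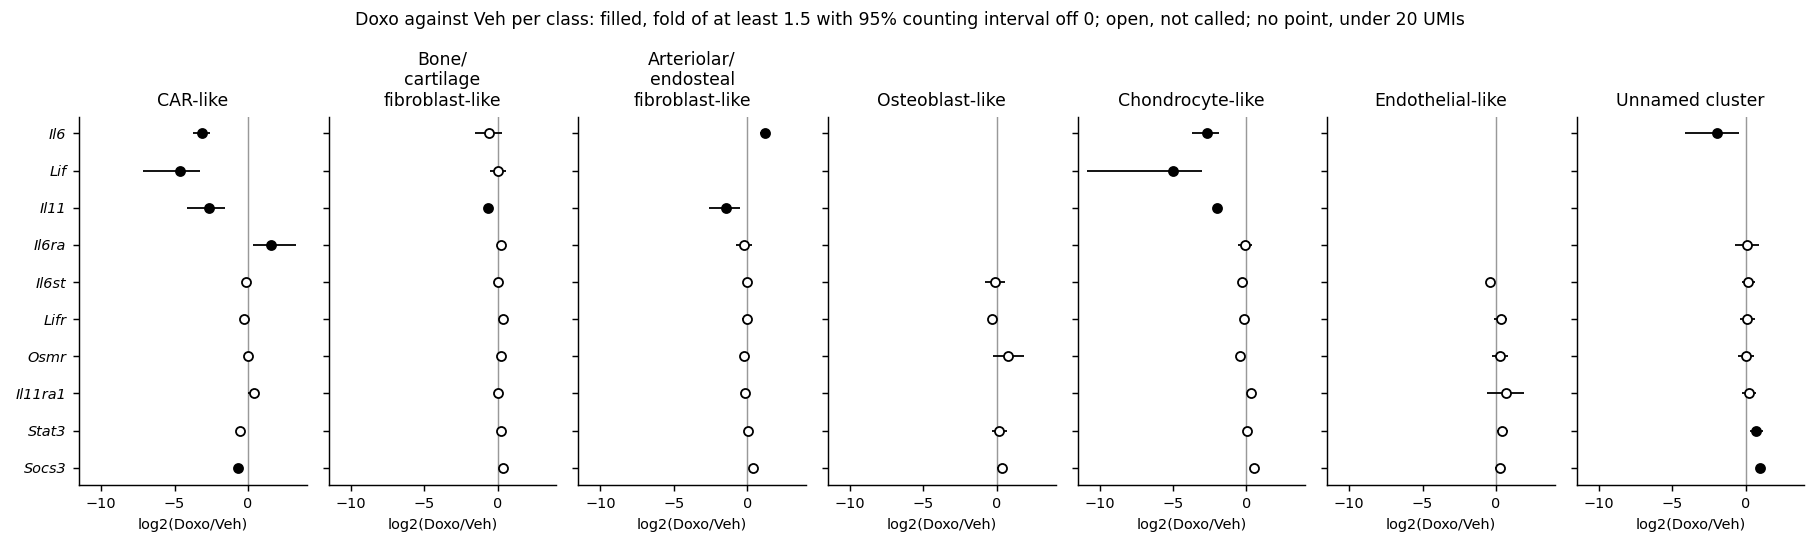
Log2 ratio of Doxo to Veh (x axis) for each gene with at least 20 UMIs in a class, with 95% counting intervals. Filled points had a fold of at least 1.5 and an interval off 0: the ligands lie left of 0 in CAR-like and chondrocyte-like cells (Il6 at -3.12 and -2.66), Il6 lies right of 0 in arteriolar and endosteal fibroblast-like cells (1.21), and among the receptor rows Il6ra in CAR-like cells is the filled point. Osmr in osteoblast-like cells (0.78) and Il11ra1 in endothelial-like cells (0.67) lie past the fold with intervals that include 0.

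Over all cells of a library, Il11 had 52.2 CPM in Veh and 16.8 in Doxo (log2 ratio -1.63, -1.81 to -1.46), Lif 8.41 and 3.61 (-1.21) and Il6 21.9 and 11.3 (-0.95). The 5 receptor genes lay between -0.14 and 0.16 and Stat3 at 0.09. Socs3 had 430 and 514 CPM (0.26, 0.22 to 0.30), so its sum over all cells was higher in Doxo while its level in CAR-like cells was lower. These sums mix class levels with class sizes. Arteriolar and endosteal fibroblast-like cells made up 17.4% of Veh and 10.5% of Doxo cells.

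A wider list of 44 genes of the pathway, 43 of them in the tables, was read the same way. In CAR-like cells 36 could be compared, of which 5 were higher and 13 lower, with a median log2 ratio of -0.40 against 0.05 for all genes. Among the ligands, Clcf1, a cytokine that acts through the receptor chain of ciliary neurotrophic factor, had 51 and 20 UMIs (-1.72). Ctf1, cardiotrophin, had 7 and 28 UMIs (1.53), and Cntfr, the receptor chain of ciliary neurotrophic factor, 10 and 34 (1.32). Osm, oncostatin M, had no UMI in Veh and 44 in Doxo, but 42 of these were in 1 cell.

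Of the known STAT3 or inflammatory targets in CAR-like cells, Ccl2, the monocyte chemokine, had 3062 CPM in Veh and 157 in Doxo (-4.28, -4.41 to -4.15). Myc had 335 and 59.9 CPM (-2.48), Cebpb, a transcription factor of the acute phase, 1008 and 331 (-1.61), and Il4ra 29.8 and 11.4 (-1.38). The kinase with the highest level, Jak1, had 319 and 179 CPM (-0.84). The IL-1 antagonist Il1rn, which the naming rule did not reach and which was chosen after its values were seen, was called higher (279 and 483 CPM, 0.79).

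The other classes are given by their own counts, and differences between classes were not tested. In chondrocyte-like cells 33 genes were compared, 3 higher and 8 lower. Timp1, an inhibitor of matrix proteases, had 868 and 195 CPM (-2.15) and Lcn2, an iron-binding acute phase protein, 13.4 and 1.94 CPM (-2.68). Il4ra had 30 and 2 UMIs (-2.96), Ccl2 24 and 4 (-1.79) and the kinase Tyk2 9 and 18 (1.61). Junb, an early-response transcription factor, had 1313 and 3015 CPM (1.20), and Cebpd 408 and 744 CPM (0.87). In bone and cartilage fibroblast-like cells 3 of 37 were called, all lower, namely Ccl2 with 173 and 21.2 CPM (-3.02), Cish (-0.85) and Il4ra (-0.64). In arteriolar and endosteal fibroblast-like cells Bcl3 was higher (0.82) and Ptpn2 (-0.69) and Pim1 (-0.69) lower, of 33.

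In osteoblast-like cells 5 of 26 were higher and 3 lower. Ccl2 had 6 and 93 UMIs (4.31) and Il1rn 7 and 61 (3.50). Ptpn2 (1.26) and Timp1 (0.91) were also higher, and the feedback genes Socs4 (-1.24) and Socs2 (-0.71) and the kinase Pim1 (-0.74) lower. The 8 CAR markers summed to 1248 CPM in Veh and 2553 in Doxo in these cells, and their part in both values was not tested. Endothelial-like cells had 2 of 26 higher, Cebpd (1.21) and Junb (0.59), and 1 lower, since Ccl2 had 596 and 8.57 CPM (-5.90, -8.40 to -4.56). CAR markers summed to 826 and 2577 CPM there. In the unnamed cluster Pim1 (0.98), Icam1 (1.57) and Ccl2 (7 and 120 UMIs, 3.99) were higher, of 24 genes compared.

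Across the 14 class-by-library levels, the 5 genes of 13527 whose log2(CPM + 1) followed that of Il6 most closely were Nsg1 (Pearson r = 0.83), Copb1 (0.83), Bcl7c (0.79), Flnc (0.79) and Oaz1 (0.78). For Socs3 they were Maob (0.85), Pde7a (0.83), Smg8 (0.83), Arhgap32 (0.82) and Lrfn3 (0.82). The 14 points share 2 libraries and their depths, and the values are a description of likeness only.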

How the data were processed

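Single-cell RNA of sorted mouse bone cells was captured with 10x Genomics 3′ v3 chemistry, and the submitters' processing notes name Cell Ranger, Partek and mouse build GRCm38 (mm10). Per the study's methods, Cell Ranger served to demultiplex, align and count. The role of Partek and the versions are not given in the sources used here. The deposited tables, 1 per library, hold log2 values per gene and cell, which the authors normalized to a fixed sum per cell. Here the values were turned back into whole UMIs (99.9% of values up to 50 UMIs lay within 0.1 of a whole number; 26 symbols did not and none was a member).

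The 10 genes and all lists were chosen with earlier results of these data known. All 4976 cells passed the study's stated filter (200 to 10000 genes, 100 to 100000 UMIs, at most 10% mitochondrial UMIs); doublets were kept and no caller was run. Cells were clustered with Seurat 5.3.0 in R 4.3.3 (2000 variable genes without the 54 member and pathway genes, 35 components, resolution 0.1). A cluster was named where at least 3 fixed markers were found in 10% of its cells and at 2 times the level of other cells. Levels are summed UMIs scaled to 1000000 (CPM) with exact Poisson intervals, shares have exact binomial intervals, and ratios add 0.5 UMI to each side with exact conditional binomial intervals (scipy 1.17.1), called at a fold of 1.5. These cover counting error only. The inversion was tested on simulated cells. The intervals of ratios were tested on simulated independent counts, which lack the gathering of UMIs in few cells seen for the ligands. That test thus says nothing of the intervals for such genes. Where a count is 0, the limit is 3 counts. Thinned cells hold 2000 UMIs, and shallower cells were left out. Named pathway genes were those called in a class, at most 8 by size, and the highest of each role; some of them are not reported here. Alternatives changed the components, cell filter, depth, weighting, fold, scaling and the definition of CAR-like cells. Promoters came from RefSeq (GRCm38.p6, 10 of 10 genes matched) and loci from GENCODE.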

Additional observations from a re-analysis of the deposited data

Results flagged for a closer look

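Il6 was called in opposite directions in different classes, a difference between classes that was not itself tested. The log2 ratio of Doxo to Veh was 1.21 in arteriolar and endosteal fibroblast-like cells, and it was -3.12 in CAR-like, -2.66 in chondrocyte-like and -1.97 in unnamed cells. Many of these UMIs lay in few cells. The 5 cells with most Il6 held 73 of 142 Veh and 105 of 165 Doxo UMIs in the arteriolar and endosteal class.

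Socs3 was also called both ways, at 0.97 in the unnamed cluster and -0.67 in CAR-like cells, and this difference was not tested either. In the unnamed cluster 27 of 44 Veh cells and 27 of 55 Doxo cells had a Socs3 UMI, and in CAR-like cells 68.3% and 68.0% did.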

How the results depend on the processing

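Of 418 single ratios recomputed under the alternatives, 373 stayed inside their counting interval, 42 left it and 3 called ratios changed sign. Il6 and Socs3 in CAR-like cells changed sign without the second sub-cluster, the one with most early-response RNA (0.30 and 0.15). That sub-cluster held 206 of the 214 Veh Il6 UMIs of CAR-like cells, so its removal by itself takes away the Il6 drop. Il6 in the unnamed cluster changed sign without the deepest 5% of cells (0.30, on 2 UMIs). Of 100 recomputed counts, 77 kept within 1.5 times the main count. In CAR-like cells the 1 higher call became 0 after thinning, without the deepest cells and with CAR markers in place of the cluster, and the 4 lower calls became 2 after thinning and by CAR markers and 1 without the sub-cluster. In bone and cartilage fibroblast-like cells the 1 lower call became 0 without the deepest cells, at a fold of 2 and when centered on the median of all genes. In arteriolar and endosteal fibroblast-like cells the 1 lower call became 0 with 20 components, after thinning and without the deepest cells. Osteoblast-like cells gained 1 lower call with 20 components, and 1 higher and 1 lower call with a stricter cell filter. Chondrocyte-like cells had 1 higher and 1 lower call after thinning. In the unnamed cluster the 2 higher calls became 1 after thinning and without the deepest cells and 0 at a fold of 2, and the 1 lower call became 0 with the stricter filter, after thinning and without the deepest cells. The causes were not tested, although thinning leaves fewer genes with 20 UMIs. The Socs3 ratio of osteoblast-like cells, 0.33 and not called, ranged from -0.78 with 20 components to 0.89 with the stricter filter. With 20 components the unnamed cluster did not form. No paired analysis was possible because each condition had 1 library. Depth limits the ligands most: Lif had 75 UMIs in all Doxo cells, and no value here has a replicate.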
